A study of Mus musculus with 24 samples.

Results

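The genes described here are 7 chemokine genes of hepatic stellate cells, Ccl2, Ccl7, Cxcl1, Cxcl5, Cxcl10, Cxcl12 and Cxcl13. They were taken by gene symbol from the mouse Ensembl identifiers of an RNA-seq expression table, in which all 7 were present among 16604 genes used. RNA was sequenced from EMS404 cells, a single line of hepatic stellate cells from C57Bl6 mouse liver, immortalized with SV40 and made to express human TLR4. The 24 libraries form 8 groups of 3 biological replicates. One group received vehicle, which the labels call untreated and the library names DMSO, and one received TGFb. The others received SB431542, which blocks the TGFb receptor, SR9011 (listed by the labels as a REV-ERBalpha agonist) or CLK8 (a compound that disrupts the CLOCK:BMAL1 dimer), each without and with TGFb. Compounds were given for 24 h, and the groups with TGFb then had 24 h of compound plus TGFb at 10 ng/mL. The labels name no compound dose. They also leave unstated whether groups without TGFb were kept for the further 24 h, so TGFb and time in culture cannot be told apart. With a compound, TGFb and longer exposure to the compound cannot be told apart either. All groups share the SV40 immortalization and the human TLR4, and the replicates are cultures of 1 line, so p-values measure the spread between cultures.

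Chemokines are small secreted proteins that guide leukocytes along gradients by binding G protein-coupled receptors. In injured liver, stellate cells are one source of them. Ccl2 and Ccl7 bind CCR2 and draw monocytes, Cxcl1 and Cxcl5 bind CXCR2 and draw neutrophils, and Cxcl10 binds CXCR3 on T cells and NK cells and is a classic interferon-induced gene. Cxcl12 is made constitutively by many stromal cells and binds CXCR4 and the scavenging receptor ACKR3, while Cxcl13 binds CXCR5 and draws B cells.

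Expression was given as FPKM, fragments scaled by transcript length and by the mapped reads of the library, a scale per length on which levels of different genes can be compared. In vehicle, Cxcl12 had by far the highest level of the 7, with a mean of 904 FPKM. Ccl2 and Cxcl10 followed at 207 and 188 FPKM, Ccl7 and Cxcl1 stood at 28.5 and 24.0 FPKM, and Cxcl5 and Cxcl13 were low at 3.38 and 0.45 FPKM. The ratio of the highest to the lowest group mean was 3.54 for Cxcl12, 5.13 for Ccl7, 7.68 for Cxcl10, 8.23 for Cxcl1, 12.6 for Ccl2 and 56.3 for Cxcl5. It has no value for Cxcl13, which is listed at 0 in every library of 2 groups. The lowest group mean belonged to a group with SR9011 for each of the 7 genes, shared by Cxcl13 with TGFb alone. How many reads each library had is unknown. The sum of FPKM ranged from 503920 to 610024 over libraries, and the smallest value steps of 24 genes gave relative depths of 0.881 to 1.07.

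**Figure D1:**
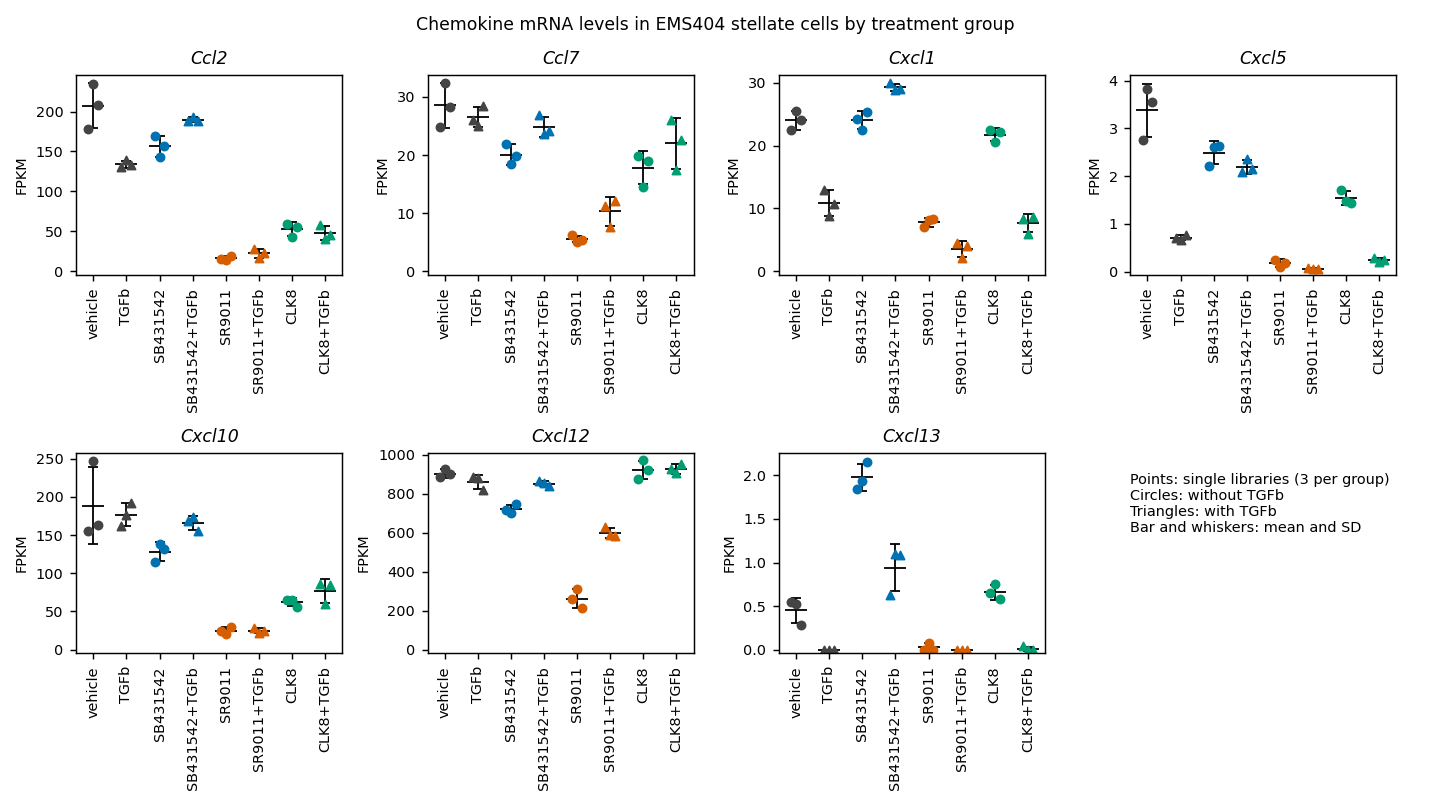
FPKM of each chemokine gene (vertical axis) in the 8 treatment groups (horizontal axis), with 1 point per library and the mean and SD of 3 libraries. Vehicle has the highest mean for Ccl2, Ccl7, Cxcl5 and Cxcl10. The lowest mean in every panel is that of a group with SR9011, with Cxcl13 also at 0 in TGFb alone.

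All positions are on mm10 (GRCm38), and all 7 genes are protein coding. Ccl2 (ENSMUSG00000035385, chromosome 11, 82035571 to 82037453, plus strand) and Ccl7 (ENSMUSG00000035373, chromosome 11, 82045712 to 82047525, plus strand) are neighbours. Cxcl5 (ENSMUSG00000029371, chromosome 5, 90759360 to 90761624, plus strand) and Cxcl1 (ENSMUSG00000029380, chromosome 5, 90891241 to 90893115, plus strand) lie in 1 cluster of CXC genes. Cxcl10 (ENSMUSG00000034855, chromosome 5, 92346638 to 92348889, minus strand) and Cxcl13 (ENSMUSG00000023078, chromosome 5, 95956951 to 95961068, plus strand) are on the same chromosome. Cxcl12 (ENSMUSG00000061353, chromosome 6, 117168535 to 117181367, plus strand) stands alone. Cxcl10 overlaps the gene Art3, which was measured at 0 to 0.25 FPKM, and the labels do not say whether the libraries kept strand, so reads of the pair cannot be separated. No other measured gene overlaps a member.

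The promoters of Cxcl1, Cxcl10 and Cxcl12 are shown because these genes differed in how they moved across the groups, as described below. RefSeq promoter sequences on GRCm38.p6 were matched for 4 of the 7 genes, Cxcl1, Cxcl10, Cxcl12 and Cxcl13. Each line gives the 250 bases before the RefSeq start, 5′ to 3′ on the strand of the gene, with capitals for matches to any of 6 motifs searched on both strands.
Cxcl1, chr5:90890995-90891244, plus strand: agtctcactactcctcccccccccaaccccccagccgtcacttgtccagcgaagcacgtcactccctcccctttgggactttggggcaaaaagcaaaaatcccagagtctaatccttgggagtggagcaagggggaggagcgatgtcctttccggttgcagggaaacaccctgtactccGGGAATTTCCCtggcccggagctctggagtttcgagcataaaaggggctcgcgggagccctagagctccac
Cxcl10, chr5:92348890-92349139, minus strand: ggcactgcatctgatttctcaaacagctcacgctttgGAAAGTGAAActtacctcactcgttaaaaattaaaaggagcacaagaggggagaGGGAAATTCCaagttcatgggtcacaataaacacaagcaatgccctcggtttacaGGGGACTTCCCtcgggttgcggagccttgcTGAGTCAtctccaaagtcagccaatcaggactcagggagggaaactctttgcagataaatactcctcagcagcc
Cxcl12, chr6:117168285-117168534, plus strand: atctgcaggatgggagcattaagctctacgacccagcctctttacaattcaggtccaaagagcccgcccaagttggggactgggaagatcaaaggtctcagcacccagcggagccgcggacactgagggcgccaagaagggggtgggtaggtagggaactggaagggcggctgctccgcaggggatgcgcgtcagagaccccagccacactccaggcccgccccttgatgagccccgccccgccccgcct

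The motifs were the NF-kB site, the interferon-stimulated response element (GAAA, any 2 bases and GAAA again), the AP-1 site TGANTCA, the E-box CACGTG, the nuclear receptor core AGGTCA and the SMAD palindrome GTCTAGAC. Among 32851 promoters of this length, 7.25% held the NF-kB site, 2.98% the interferon element, 6.75% the AP-1 site, 6.02% the E-box, 14.0% the nuclear receptor core and 0.167% the SMAD palindrome. Capitals in Cxcl1 mark overlapping NF-kB matches on the plus and minus strands, 71 to 62 and 70 to 61 bases before the start. In Cxcl10, capitals mark the interferon element at 213 to 204 bases before the start, an NF-kB match at 159 to 150, overlapping NF-kB matches at 104 to 95 and 103 to 94, and the AP-1 site at 74 to 68. None of the 6 motifs matched the Cxcl12 window, and Cxcl13 had only the nuclear receptor core, on the minus strand, 87 to 82 bases before the start. A match describes letters in the window and does not show that a factor binds there.

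Differences below are between group means of log2(FPKM + 1), first group minus second, with the standard error (SE). This scale understates the change of genes near or under 1 FPKM, which here means Cxcl5 and Cxcl13. Genes are called at a limma p under 0.05 after Benjamini-Hochberg adjustment over 11297 tested genes. All 7 genes passed the filter of 1 FPKM in at least 3 of 24 libraries. Cxcl13 reached 1 FPKM only with SB431542, without or with TGFb. It passed through the groups in which it was high, so its difference between those groups and others is partly set by the filter. Cxcl5 reached 1 FPKM only in vehicle, CLK8 alone and the groups with SB431542, so the same limit holds for its falls in other groups. In these bulk libraries, fewer cells that express a gene and less RNA per cell cannot be told apart.

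Ccl2, the main monocyte attractant of the CCR2 axis, had 179, 235 and 208 FPKM in the vehicle libraries. SR9011 libraries had 16.1, 14.2 and 19.0 FPKM, and those with SR9011 and TGFb had 27.5, 16.8 and 23.3 FPKM. CLK8 libraries had 59.5, 42.6 and 56.0 FPKM, and those with CLK8 and TGFb had 57.9, 40.3 and 45.5 FPKM. Every library with SR9011 thus lay below every library with CLK8, and those lay below every other library. The fall was to 7.93% of the vehicle mean with SR9011 (log2 -3.58, SE 0.157, adjusted p = 1.01e-13) and to 25.4% with CLK8 (-1.96, adjusted p = 5.22e-09). TGFb alone gave 130.1, 139 and 133 FPKM, all below vehicle (-0.61, adjusted p = 0.00256). SB431542 gave 169, 143 and 157 FPKM, which missed the threshold (-0.40, 95% interval -0.72 to -0.07 before adjustment, adjusted p = 0.0945) and was called in a fit of these 6 libraries alone (0.0321). With SB431542 and TGFb together, values of 189, 193 and 188 FPKM lay within the vehicle range and above TGFb alone (0.50, adjusted p = 0.00987).

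Ccl7, the neighbour of Ccl2 and also a CCR2 ligand, varied less. Vehicle libraries had 24.9, 32.5 and 28.2 FPKM and TGFb libraries 26.1, 25.0 and 28.4 FPKM, which overlap. SR9011 gave 6.21, 5.13 and 5.32 FPKM, below every library of every other group (-2.17, SE 0.1497, adjusted p = 7.46e-11). SR9011 with TGFb gave 11.3, 7.55 and 12.2 FPKM, above all SR9011 libraries and below all libraries without SR9011. CLK8 gave 19.9, 14.6 and 19.0 FPKM, below all vehicle libraries (-0.65, adjusted p = 0.00142), and CLK8 with TGFb gave 26.0, 17.4 and 22.6 FPKM, which overlap those of TGFb alone (-0.27, 95% interval -0.58 to 0.04). SB431542 gave 21.9, 18.4 and 19.8 FPKM (-0.48, adjusted p = 0.031), and SB431542 with TGFb gave 26.8, 23.6 and 24.2 FPKM. For Ccl7, 5 of the 7 neighbouring pairs in the order of group means overlapped in their libraries, and the clear steps were those below CLK8 and below SR9011 with TGFb.

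Cxcl1, a neutrophil attractant, was lowered by TGFb and by SR9011. Vehicle libraries had 22.5, 25.6 and 24.0 FPKM, and TGFb libraries had 12.9, 8.86 and 10.7 FPKM, all below vehicle (-1.09, SE 0.153, adjusted p = 4.75e-06). SR9011 gave 6.98, 8.11 and 8.32 FPKM (-1.51, adjusted p = 2.69e-08), and SR9011 with TGFb gave the lowest values, 4.45, 2.18 and 4.03 FPKM. CLK8 alone gave 22.4, 20.5 and 22.2 FPKM, which lay below every vehicle library by a small gap and was not called (-0.14, 95% interval -0.46 to 0.18, adjusted p = 0.489). CLK8 with TGFb gave 8.29, 5.99 and 8.66 FPKM, below every TGFb library (-0.45, adjusted p = 0.0225). SB431542 gave 24.2, 22.5 and 25.4 FPKM, overlapping those of vehicle (0.00, 95% interval -0.32 to 0.32). SB431542 with TGFb gave 29.9, 28.8 and 29.1 FPKM, the highest of all groups and above every TGFb library (1.37, adjusted p = 1.83e-07).

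Cxcl5, the other CXCR2 ligand of the set, followed a similar order at a lower level. Vehicle libraries had 2.75, 3.82 and 3.56 FPKM and TGFb libraries 0.71, 0.65 and 0.77 FPKM (-1.35, SE 0.079, adjusted p = 1.27e-12). SR9011 gave 0.25, 0.10 and 0.18 FPKM (-1.89, adjusted p = 1.47e-15), and SR9011 with TGFb gave 0.08, 0.05 and 0.05 FPKM. CLK8 gave 1.7, 1.48 and 1.43 FPKM (-0.78, adjusted p = 3.23e-08), and CLK8 with TGFb gave 0.28, 0.20 and 0.24 FPKM. Every library with TGFb lay below every library of its partner group without TGFb for vehicle, SR9011 and CLK8, although the difference within SR9011 was not called (-0.15, adjusted p = 0.13). It was called with smaller pseudocounts, at -0.76 with 0.1 (adjusted p = 0.00072) and -0.27 with 0.5 (0.0363). With SB431542 the values were 2.22, 2.62 and 2.64 FPKM, and with SB431542 and TGFb they were 2.08, 2.35 and 2.14 FPKM, which overlap. Against TGFb alone, SB431542 with TGFb was higher (0.90, adjusted p = 1.18e-09), and SR9011 with TGFb (-0.69) and CLK8 with TGFb (-0.46) were lower.

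Cxcl10, the interferon-induced CXCR3 ligand, fell with SR9011 and CLK8. Vehicle libraries had 156, 246 and 163 FPKM, with replicate 2 well above the others, and TGFb libraries had 162, 176 and 192 FPKM, inside that range (-0.06, 95% interval -0.41 to 0.28). SR9011 gave 24.4, 19.96 and 29.3 FPKM (-2.88, SE 0.168, adjusted p = 1.08e-11), and SR9011 with TGFb gave 28.8, 21.5 and 24.7 FPKM (-2.78 against TGFb, adjusted p = 2.83e-11). CLK8 gave 65.0, 65.4 and 56.5 FPKM (-1.55, adjusted p = 3.76e-07), and CLK8 with TGFb gave 86.6, 59.2 and 85.1 FPKM (-1.21 against TGFb, adjusted p = 1.16e-05). As for Ccl2, every SR9011 library lay below every CLK8 library, and those lay below all libraries without either compound. SB431542 gave 114, 138 and 132 FPKM, below all vehicle libraries (-0.53, adjusted p = 0.0362), and SB431542 with TGFb gave 169, 173 and 156 FPKM.

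Cxcl12, the constitutive CXCR4 ligand, fell most in libraries with SR9011 and less in those with SB431542 alone. Vehicle libraries had 885, 927 and 900.2 FPKM and SR9011 libraries 260.2, 312 and 214 FPKM (-1.80, SE 0.082, adjusted p = 6.37e-15). SR9011 with TGFb gave 630.3, 586 and 581 FPKM, all above SR9011 alone (1.21, adjusted p = 2.54e-11) and all below TGFb alone (-0.53, adjusted p = 7.05e-06), whose libraries had 886, 881 and 822 FPKM. CLK8 gave 877, 973 and 920.1 FPKM, which overlap vehicle (0.03, 95% interval -0.14 to 0.20), and CLK8 with TGFb gave 925, 906 and 954 FPKM (0.11 against TGFb, 95% interval -0.06 to 0.27). Quantile normalization gave a call for the latter, at 0.28 (adjusted p = 0.0286). SB431542 gave 718, 704 and 746 FPKM, a smaller step below all vehicle libraries (-0.32, adjusted p = 0.00717). SB431542 with TGFb gave 867, 854 and 838 FPKM, within the range of TGFb alone.

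Cxcl13, the B cell attractant, was the only member that SB431542 raised over vehicle. Vehicle libraries had 0.55, 0.52 and 0.28 FPKM and SB431542 libraries 1.84, 1.94 and 2.15 FPKM (1.04, SE 0.084, adjusted p = 9.29e-09). With SB431542 and TGFb the values were 0.63, 1.1 and 1.09 FPKM, below SB431542 alone (-0.63, adjusted p = 5.41e-05). All libraries with TGFb alone and with SR9011 and TGFb were listed at 0, 1 of 3 SR9011 libraries had 0.08 FPKM, and 1 of 3 libraries with CLK8 and TGFb had 0.04 FPKM. CLK8 alone gave 0.65, 0.75 and 0.58 FPKM, above all vehicle libraries by a gap that missed the threshold (0.20, adjusted p = 0.0597). The gap was called without vehicle replicate 1 (0.0381), after quantile normalization (0.23, 0.0463) and with moderation without trend (0.0448). The differences from vehicle of -0.53 for TGFb and -0.49 for SR9011 are about the largest fall that the scale allows from 0.45 FPKM. No fold is given against groups at 0.

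**Figure D2:**
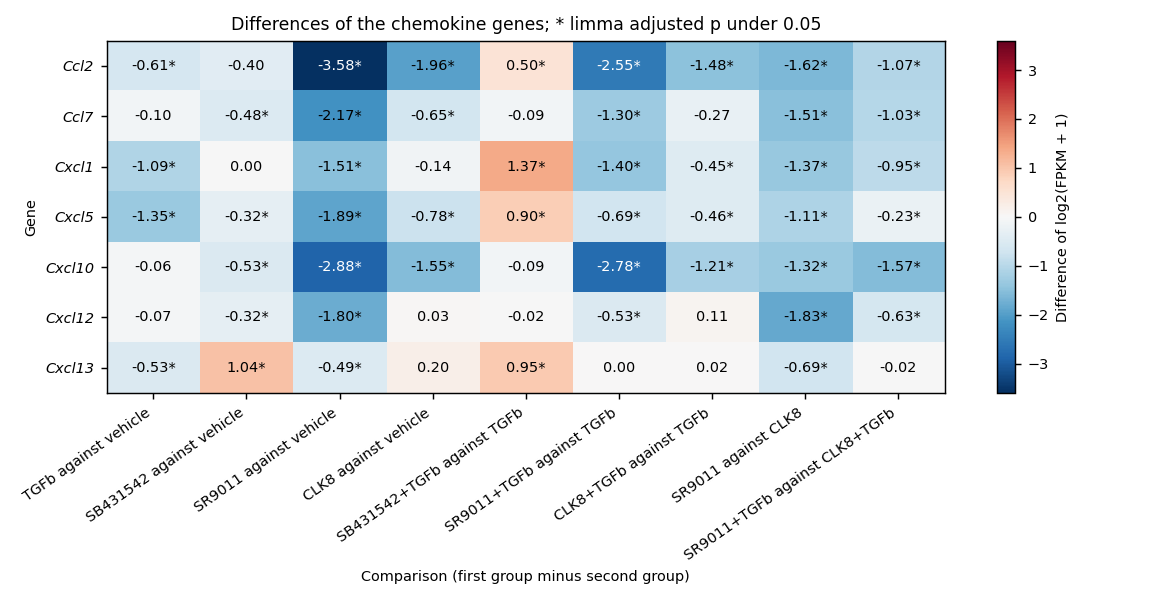
Difference of log2(FPKM + 1) for each gene (rows) in 9 comparisons (columns), as the first group named minus the second, with an asterisk where the limma adjusted p was under 0.05. The column of SR9011 against vehicle is negative and called in all 7 rows, while CLK8 against vehicle is called in 4.

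SR9011 against vehicle asked what the REV-ERBalpha agonist did to cells without TGFb. All 7 chemokine genes were lower, where 69.1% of all 11297 tested genes were called, 40.7% higher and 28.3% lower. The median difference of the 7 was -1.89, against 0.06 over all tested genes. The falls ran from -3.58 for Ccl2 to -1.51 for Cxcl1, with Cxcl13 at -0.49 from its low level. Leaving out each vehicle or SR9011 library in turn kept the count at 7 in all 6 fits. The SR9011 libraries were the most spread of all groups, with mean squared residuals of 0.00925 to 0.0192 against 0.00346 to 0.00891 in the other libraries. The summed FPKM of 9 stellate cell markers moved the same way, from 2461 to 2563 in vehicle to 957 to 1081.5 with SR9011. Most of this sum came from Col1a1 (342 to 2617 FPKM over all libraries) and Vim (465 to 911), so it reflects these genes more than the other markers. The sum of 4 cholangiocyte markers also fell, from 8.08 to 10.5 FPKM in vehicle to 4.04 to 4.67 FPKM. That of 6 endothelial markers rose, from 1.51 to 1.61 FPKM in vehicle to 2.09 to 2.29 FPKM. Only Tek (0.66 to 2.92 FPKM over all libraries) of these passed the filter, and each of the others reached at most 0.35 FPKM. The endothelial sum, here and below, thus follows mainly Tek. The part of these sums in the chemokine result was not tested.

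Under TGFb, SR9011 was compared with TGFb alone. Here 6 of 7 chemokine genes were lower, where 60.8% of genes were called, 36.8% higher and 24% lower, and Cxcl13 was at 0 in both groups. The stellate marker sum was 3277 to 3701 FPKM with TGFb and 1831 to 1933 with SR9011 and TGFb, that of cholangiocyte markers 7.2 to 8.43 and 2.51 to 3.12, and that of endothelial markers 1.3 to 1.49 and 2.69 to 3.38, and their part in the result was not tested. Cxcl10 (-2.78) and Ccl2 (-2.55) fell most, followed by Cxcl1 (-1.40), Ccl7 (-1.30), Cxcl5 (-0.69) and Cxcl12 (-0.53). TGFb within SR9011 raised 3 members and lowered 1, where 45.3% of genes were called, 14.3% higher and 31% lower. Cxcl12 (1.21) and Ccl7 (0.77, adjusted p = 0.000292) rose and Cxcl1 fell (-0.99, adjusted p = 2.49e-05). The rise of Ccl2 from 16.4 to 22.5 FPKM (0.41, adjusted p = 0.038) was lost in 4 of 6 fits that left out 1 library, namely SR9011 replicate 1 (0.0863), SR9011 replicate 2 (0.15), SR9011 with TGFb replicate 1 (0.214) and SR9011 with TGFb replicate 3 (0.105), and in a fit of these 6 libraries alone (0.0795).

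CLK8 against vehicle lowered 4 of 7 members, where 43.9% of genes were called, 30.3% higher and 13.6% lower. These were Ccl2, Cxcl10, Cxcl5 and Ccl7, with differences from -1.96 to -0.65, while Cxcl1 and Cxcl12 were not called and Cxcl13 was 0.20 higher without a call. The median of the 7 was -0.65, against 0.06 over all genes. With CLK8 the stellate marker sum was 2017 to 2058 FPKM and the cholangiocyte marker sum 4.43 to 5.13 FPKM, both below vehicle. The endothelial sum was below vehicle too, at 0.89 to 0.93 FPKM. The macrophage marker sum was above vehicle, at 2.52 to 3.36 FPKM against 1.38 to 2.0 FPKM. Only Cd68 (0.83 to 2.9 FPKM over all libraries) of the macrophage markers passed the filter, so this sum follows mainly Cd68. The part of these sums in the result was not tested. Under TGFb, CLK8 also lowered 4 of 7, where 41.1% were called, 27.7% higher and 13.3% lower. These were Ccl2 (-1.48), Cxcl10 (-1.21), Cxcl5 (-0.46) and Cxcl1 (-0.45). The call of Cxcl1 was lost in 3 of 6 fits with 1 library left out (TGFb replicate 1, adjusted p = 0.124; TGFb replicate 3, 0.0511; CLK8 with TGFb replicate 2, 0.133) and with the compared groups alone (0.0656).

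SR9011 and CLK8, which act on linked arms of the circadian clock, were compared directly, with unknown doses. SR9011 was lower than CLK8 in 7 of 7 members, where 63.6% of genes were called and 31.1% were called lower. The gaps were largest for Cxcl12 (-1.83, SE 0.082), Ccl2 (-1.62), Ccl7 (-1.51), Cxcl1 (-1.37) and Cxcl10 (-1.32). With TGFb in both groups, 6 of 7 were lower with SR9011, where 53.6% were called and 25.1% were called lower, and Cxcl10 had the largest gap (-1.57). The gap of Cxcl5 (-0.23, adjusted p = 0.0189) between 0.06 and 0.24 FPKM was lost without CLK8 with TGFb replicate 1 (0.0648) and with quantile normalization (0.0723). The comparisons of each compound with vehicle share the same 3 vehicle libraries, and those with TGFb share the same 3 TGFb libraries.

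TGFb against vehicle lowered 4 of 7 members and raised none, where 54.9% of genes were called, 20.5% higher and 34.4% lower. Both CXCR2 ligands fell, Cxcl5 by 1.35 and Cxcl1 by 1.09 on the log2 scale, as did Ccl2 by 0.61 and Cxcl13 by 0.53. Ccl7, Cxcl10 and Cxcl12 had differences of -0.10, -0.06 and -0.07, with 95% intervals of -0.41 to 0.21, -0.41 to 0.28 and -0.24 to 0.10. The split of called genes depended on scaling, with 37.3% of calls higher as reported, 51.0% as TPM and 49.7% after quantile normalization. The same 4 members were called lower under both scalings. The stellate marker sum rose, from 2461 to 2563 FPKM in vehicle to 3277 to 3701 FPKM with TGFb. The endothelial marker sum was slightly lower, 1.3 to 1.49 FPKM against 1.51 to 1.61 FPKM in vehicle. The part of these sums in the result was not tested.

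SB431542 against vehicle, with no TGFb added, raised Cxcl13 and lowered 4 others, where 16.9% of genes were called, 11.9% higher and 5.05% lower. The falls in Cxcl10 (-0.53), Ccl7 (-0.48), Cxcl12 (-0.32) and Cxcl5 (-0.32) were small. The stellate marker sum was also lower, 1987 to 2121 FPKM against 2461 to 2563 in vehicle, as was the endothelial one, 1.06 to 1.14 against 1.51 to 1.61, and their part was not tested. With a pseudocount of 0.1, Cxcl5 was no longer called (adjusted p = 0.0965). Without vehicle replicate 2, which had the highest Ccl2, Ccl7, Cxcl1, Cxcl5, Cxcl10 and Cxcl12 of its group, 2 members remained called, and Ccl7 (adjusted p = 0.135), Cxcl10 (0.201) and Cxcl5 (0.0544) were not. Without SB431542 replicate 3 the count was 3, and over the 6 such fits the call of Ccl7 was lost in 4 and that of Cxcl10 in 3. A fit of these 6 libraries alone also lost Cxcl10 (0.114). Quantile normalization ended the call of Cxcl12 (0.0726), and of called genes 70.1% were higher as reported and 52.1% after it.

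With TGFb present, SB431542 raised 4 of 7 members over TGFb alone, Cxcl1 (1.37), Cxcl13 (0.95), Cxcl5 (0.90) and Ccl2 (0.50), where 59.7% of genes were called, 38.3% higher. This comparison and that of TGFb with vehicle share the TGFb libraries. TGFb within SB431542 changed 1 of 7 members, Cxcl13 (-0.63), where 4.36% of genes were called and 2.35% were called lower. The same-numbered libraries of these 2 groups deviated together, and fits of these 6 libraries alone called 6 members, without the replicate number as a block and with it. In the blocked fit, chosen after seeing the data, Cxcl10 (0.37, adjusted p = 0.0026), Ccl7 (0.30, 0.00066), Ccl2 (0.28, 0.00435), Cxcl1 (0.27, 0.00163) and Cxcl12 (0.24, 0.00796) were higher with TGFb and Cxcl13 lower (0.000268), and 1033 genes were called against 493 in the fit of all groups. With the block in the fit of all groups, the members' count stayed at 1.

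TGFb within CLK8 lowered 3 of 7 members, where 51.9% of genes were called, 17.3% higher and 34.6% lower. These were Cxcl1 (-1.41, SE 0.153, adjusted p = 1.53e-07), Cxcl5 (-1.03) and Cxcl13 (-0.71). Ccl7 and Cxcl10 each had a difference of 0.28 that missed the threshold, and both were called higher without CLK8 with TGFb replicate 2 (0.43, adjusted p = 0.023, and 0.46, adjusted p = 0.0301), which raised the count to 5. As TPM, Ccl7 was called too (0.39, adjusted p = 0.036). Cxcl12 stood at 923 and 928 FPKM without and with TGFb.

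**Figure D3:**
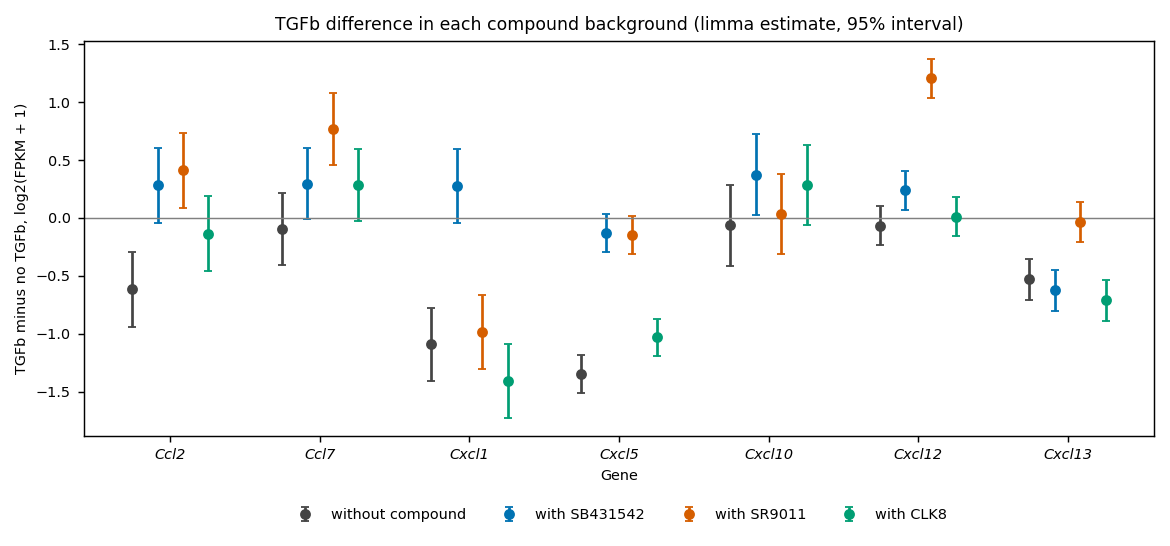
TGFb difference of log2(FPKM + 1) for each chemokine gene (horizontal axis) without compound and with each of the 3 compounds. The 95% intervals are from the limma fit of all groups without a replicate block. Cxcl12 with SR9011 (1.21) and Ccl7 with SR9011 (0.77) stand above 0, and Cxcl1 lies at -0.99 or below in every background but SB431542.

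Whether a compound altered the TGFb difference was tested as an interaction. Groups with TGFb may have had 24 h more of the compound than their partners. An altered TGFb difference and longer exposure to the compound thus cannot be told apart. With SR9011, 5 of 7 members had a higher TGFb difference than without compound, where 31.9% of genes were called, 16.6% higher and 15.3% lower. Cxcl12 had the largest interaction (1.27, SE 0.115, adjusted p = 3.44e-08), from a TGFb difference of -0.07 without compound to 1.21 with SR9011. Ccl2 (1.03) and Ccl7 (0.86) also had higher TGFb differences. Cxcl5 (1.20) and Cxcl13 (0.49) were already near 0 FPKM with SR9011 alone, at 0.177 and 0.0267 FPKM, where the scale leaves little room for a further fall. Cxcl1 fell with TGFb by 1.09 without compound and by 0.99 with SR9011, and its interaction of 0.11 (95% interval -0.34 to 0.55) was not called.

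With SB431542, 4 of 7 members had a higher TGFb difference than without it, where 34.3% of genes were called and 21.5% were called higher. These were Cxcl1 (1.37, adjusted p = 5.66e-05), Cxcl5 (1.22), Ccl2 (0.90) and Cxcl12 (0.31, adjusted p = 0.0431). The call of Cxcl12 was lost in all 12 fits that left out 1 library, where its adjusted p ran up to 0.0976, and as TPM (0.154) and after quantile normalization (0.317). The TGFb difference of Cxcl13 was -0.53 without compound and -0.63 with SB431542, an interaction of -0.10 (95% interval -0.34 to 0.15), although without compound the fall ended at 0. This value depends on the pseudocount, and with 0.1 in place of 1 the interaction was 1.39 (adjusted p = 0.00351). With CLK8, limma called an interaction for 0 of 7 members, where 7.97% of genes were called, 4.58% higher and 3.39% lower, and 2 had an unadjusted p under 0.05, Cxcl5 (0.32) and Ccl2 (0.48). Without vehicle replicate 1, Cxcl5 was called (0.42, adjusted p = 0.00949).

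Of 31 other chemokine ligands listed, 25 were in the table and 7 passed the filter. The rest stayed low in all libraries, among them the CXCR2 ligands Cxcl2 (at most 0.26 FPKM) and Cxcl3 (0.19), and Cxcl9 (0.38), the neighbour of Cxcl10 on chromosome 5. With SR9011, 4 of 7 were lower and none higher, namely Cxcl15 (-1.32), Ccl5 (-1.09), the platelet factor gene Pf4 (-0.74) and Cxcl16 (-0.40), while Cx3cl1, Ccl27a and Ccl25 had -0.19, -0.17 and 0.10. With TGFb, 4 were lower, Cxcl15 (-1.32), Ccl5 (-0.96), Pf4 (-0.79) and Ccl27a (-0.53), and Cx3cl1 was higher (0.26), with Ccl25 at -0.08 and Cxcl16 at 0.08. CLK8 lowered Ccl5 (-0.47), Cxcl16 (-0.46) and Cxcl15 (-0.18) and raised Pf4 (0.57), with Cx3cl1 at 0.04, Ccl25 at 0.02 and Ccl27a at -0.07. Pf4 had 0.34, 0.92 and 1.03 FPKM in vehicle and reached 1 FPKM in every library only with SB431542 and with CLK8, so its rises there are partly set by the filter. Cxcl15 averaged 1.66 FPKM in vehicle and 0.06 FPKM with TGFb and with SR9011, so its falls there are partly set by the filter too. SB431542 raised Pf4 (0.94) and lowered Cxcl16 (-0.37) and Cx3cl1 (-0.31), with Ccl5 at 0.18, Cxcl15 at 0.08, Ccl25 at 0.06 and Ccl27a at -0.21. Of all tested genes, 28.3% were called lower and 40.7% higher with SR9011, and 34.4% and 20.5% with TGFb. These shares were 13.6% and 30.3% with CLK8, and 5.05% and 11.9% with SB431542. The medians of the 7 ligands were -0.40 with SR9011, -0.53 with TGFb, -0.07 with CLK8 and 0.06 with SB431542, against 0.06, -0.05, 0.06 and 0.03 over all tested genes. Pf4 and Cxcl15 lie between Cxcl5 and Cxcl1 on chromosome 5, and Pf4, like Cxcl13, was at 0 in all libraries with TGFb alone and highest with SB431542 (2.32 FPKM). Ccl25, Ccl27a and Cxcl16 each overlap another measured gene, so their values are less certain.

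Of the receptors named above for these ligands and measured here, only Ackr3 passed the filter. The cognate receptor genes Ccr2 (at most 0.01 FPKM), Cxcr2 (0.18), Cxcr4 (0.02) and Cxcr5 (0.08) did not pass the filter, and Cxcr3 was not among the genes used. Of 23 listed receptor genes, 15 were in the table and 2 passed the filter. Ackr3, the scavenging receptor for Cxcl12, had 6.32 ± 0.755 FPKM in vehicle, 3.14 ± 1.05 with SR9011 (-0.85, adjusted p = 5.28e-06) and 10.7 ± 0.552 with SR9011 and TGFb (SD, n = 3). Its highest level was 16.2 ± 0.807 FPKM with CLK8 and TGFb, above TGFb alone at 8.38 ± 0.725 (0.88, adjusted p = 1.33e-05). Like Cxcl12, Ackr3 had a higher TGFb difference with SR9011 (interaction 1.17, adjusted p = 5.58e-05). Ccrl2, an atypical receptor that binds chemerin, fell from 1.02 FPKM to 0.337 with TGFb, 0.603 with SR9011 and 0.570 with CLK8. It was near the filter limit of 1 FPKM in vehicle and at most 1.41 FPKM in any library, so these falls are partly set by the filter.

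**Figure D4:**
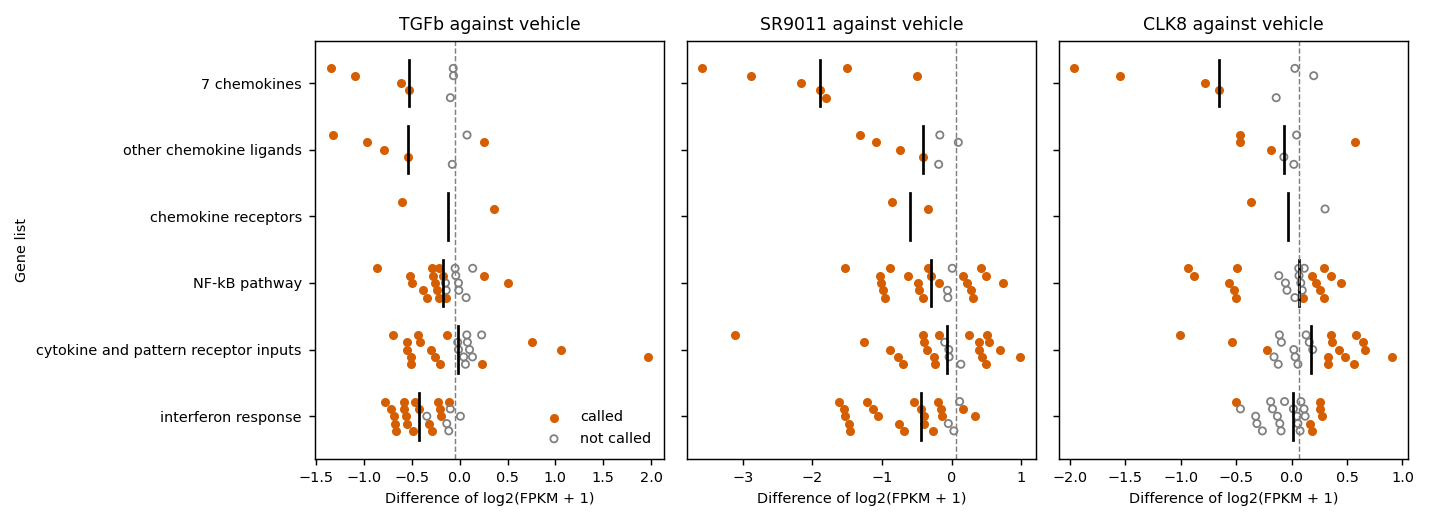
Difference of log2(FPKM + 1) from vehicle (horizontal axis) for each tested gene of 6 gene lists (rows) with TGFb, SR9011 and CLK8, filled where called by limma. Black bars are list medians and dashed lines the median of all tested genes, and the chemokine median with SR9011 (-1.89) lies to the left of the medians of the other lists drawn.

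Genes of the NF-kB pathway, the signalling route through which cytokines and TLRs induce many chemokines, moved in both directions. With SR9011, 13 of 23 tested were lower and 7 higher, with a median of -0.29, where 28.3% of all genes were called lower and 40.7% higher. The inhibitor genes Nfkbia (-1.02) and Nfkbie (-1.02), which are also NF-kB targets, and the kinase gene Map3k14 (-0.88) fell. With CLK8, 6 were lower and 8 higher (5 after quantile normalization), with a median of 0.07, where 13.6% of all genes were called lower and 30.3% higher, and Relb (-0.52), Tnip1 (-0.51) and Nfkbie (-0.50) fell. With TGFb, 13 were lower and 2 higher, where 34.4% of all genes were called lower and 20.5% higher, with falls in the adhesion gene Vcam1 (-0.87), Nfkbia (-0.52) and Nfkb1 (-0.29). With SB431542, 3 were higher (1 as TPM) and 2 lower (5 after quantile normalization, 1 as TPM), where 11.9% of all genes were called higher and 5.05% lower, among them Ikbke (0.30), Vcam1 (0.17) and Nfkb2 (-0.20).

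Of 24 tested genes of cytokines, TLRs, cytokine receptors and their signalling partners, 11 were lower and 9 higher with SR9011. The shares over all genes are those given above for each comparison. The alarmin gene Il33 fell most (-3.11, from 13.7 to 0.720 FPKM), with Il6 (-1.26) and the macrophage growth factor gene Csf1 (-0.88). With CLK8, 3 were lower (6 after quantile normalization) and 11 higher, with Csf1 at -1.01, Osmr at 0.66 and mouse Tlr4 at 0.91, the last from 2.31 to 5.21 FPKM. The labels do not say how reads of the human TLR4 were counted. TGFb lowered 11 and raised 4 (7 as TPM), with rises in the Il33 receptor gene Il1rl1 (1.97) and in Il6 (1.06) and a fall in Tnfrsf1a (-0.55). Il1rl1 reached 1 FPKM only in TGFb alone and in CLK8 with TGFb, so its rise is partly set by the filter. SB431542 lowered 5, such as Il33 (-0.49) and Csf1 (-0.31), and raised 3, such as Il6ra (0.35). The list medians were -0.07 with SR9011, 0.17 with CLK8, -0.02 with TGFb and -0.04 with SB431542.

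Of 23 tested interferon response genes, 18 were lower and 2 higher with SR9011, where 28.3% of all genes were called lower and 40.7% higher, with Gbp3 (-1.61) and Gbp2 (-1.54) among the falls. CLK8 lowered 1, Rsad2 (-0.50), and raised 5, including Ifnar1 (0.27), Irf1 (0.25) and Ifit2 (0.25), where 30.3% of all genes were called higher. Other interferon-induced genes were not called and lay on both sides of 0. Isg15 was at -0.46, Ifit3 at -0.32, Oasl2 at -0.31, Usp18 at -0.26 and Ifit1 at -0.11. Stat2 was at 0.12, Bst2 at 0.11, Gbp3 at 0.08, Gbp2 at 0.05 and Ddx58 at 0.02. These genes and Rsad2 were chosen after their values were seen. TGFb lowered 18 and raised none, where 34.4% of all genes were called lower, with Irf2 (-0.77), Ifih1 (-0.66) and Stat2 (-0.49) lower. SB431542 raised 4, including Irf1 (0.28), Irf2 (0.25) and Ifit2 (0.26), and lowered none, where 11.9% of all genes were called higher and 5.05% lower. Against vehicle the list medians were -0.44 with SR9011, 0.02 with CLK8, -0.42 with TGFb and -0.03 with SB431542, the last below 0 although its calls were higher.

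Proteases that can trim chemokines were tested for 5 genes, and each was called in every comparison with vehicle, where 69.1% of all genes were called with SR9011, 54.9% with TGFb, 43.9% with CLK8 and 16.9% with SB431542. SR9011 raised Mmp13 (3.06) and Mmp14 (0.94) and lowered 3, including Mmp9 (-1.37). TGFb raised Mmp2 (3.09, from 9.82 to 91.4 FPKM) and 2 others and lowered Mmp3 (-3.68) and Mmp13 (-2.04). SB431542 raised 4, including Mmp3 (1.19) and Mmp13 (0.88), and lowered Mmp2 (-1.10). CLK8 raised 3, including Mmp13 (1.24), and lowered Mmp2 (-0.89) and Mmp9 (-0.75). The medians of the 5 were -0.47 with SR9011, 0.63 with TGFb, 0.32 with SB431542 and 0.37 with CLK8.

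Among 10 tested genes that code for the compounds' targets, SR9011 raised 6 and lowered 1. The REV-ERB genes Nr1d1 (1.08) and Nr1d2 (0.66) and Clock (0.50) were higher, and Nr1d1 overlaps another measured gene. CLK8 raised 7 and lowered none, including Nr1d1 (0.75) and Tgfbr3 (0.43). TGFb raised 3, including Arntl (0.74) and Tgfbr2 (0.32), and lowered 3, including Tgfbr3 (-1.24). SB431542 raised 5, including Nr1d1 (0.40) and Tgfbr2 (0.23), and lowered 1. Of all tested genes, 40.7% were called higher and 28.3% lower with SR9011, and 30.3% and 13.6% with CLK8. These shares were 20.5% and 34.4% with TGFb, and 11.9% and 5.05% with SB431542. The medians of the 10 were 0.29 with SR9011, 0.26 with CLK8, 0.07 with TGFb and 0.18 with SB431542. Over all tested genes they were 0.06, 0.06, -0.05 and 0.03.

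Across the 24 libraries, Pearson correlations of log2(FPKM + 1) are given as a description, since libraries share 8 groups and the same treatments set much of every gene's variation. Ccl2 and Cxcl10 had the highest r of the 21 pairs of members (0.97), above Cxcl1 with Cxcl5 (0.92), Ccl7 with Cxcl10 (0.91), and Ccl2 with Ccl7 and Ccl7 with Cxcl12 (both 0.88). Cxcl12 with Cxcl13 had the lowest (0.28). The tested genes most like each member over the 24 libraries were Tubb2b (0.98) and Flrt3 (0.974) for Ccl2, Sec22b (0.954) and Ifi211 (0.951) for Ccl7, and Mov10 (0.968) and Hp (0.966) for Cxcl1. They were Hmgn3 (0.971) and Fzd8 (0.97) for Cxcl5, Ifi204 (0.97) and Tnfaip3 (0.964) for Cxcl10, Fkbp14 (0.963) and Ugdh (0.962) for Cxcl12, and Rhou (0.971) and Synm (0.962) for Cxcl13.

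The labelled cell type was checked against markers. Vim, Col1a1, Hand2, Lhx2, Acta2 and Pdgfrb were present in all libraries, while the stellate markers Des (at most 0.39 FPKM), Ngfr (0.15) and Reln (0) were near or at 0. Lrat, also listed as a stellate marker, was not among the genes used. Markers of other liver cells summed to 1.14 to 3.36 FPKM for macrophages (6 genes), 0.89 to 3.38 for endothelial cells (6 genes), 0 to 0.22 for hepatocytes (3 genes) and 2.51 to 11.4 for cholangiocytes (4 genes). Only Cd68 (0.83 to 2.9 FPKM) of the macrophage genes and Tek (0.66 to 2.92 FPKM) of the endothelial genes passed the filter. The leukocyte gene Ptprc was at most 0.02 FPKM. The macrophage sum was 1.38 to 2.0 FPKM in vehicle and 1.7 to 2.59 FPKM with SR9011.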

How the data were processed

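RNA-seq levels of 24 EMS404 libraries, in 8 groups of 3, were deposited by the authors as FPKM. Per the submitters' processing notes, HISAT2 2.0.4, Bowtie2 2.2.5, RSEM and DESeq2 were used with mm10, with no roles given. RNA was purified with either of 2 kits by abundance, per the labels' protocols, and the labels do not tie a kit to any sample. Of 16612 identifiers, 8 stood on 2 lines each and were left out, which left 16604 genes. Symbols and positions came from GENCODE M21 for matched identifiers (43 had none). The 11297 genes that reached 1 FPKM in 3 or more libraries entered a limma 3.58.1 fit of log2(FPKM + 1), run in R 4.3.3 (moderation with trend and robust, a single model of the 8 groups with 16 residual degrees of freedom, 2-sided tests, Benjamini-Hochberg, threshold 0.05) in 15 comparisons. The fit was tested on simulated data. Tables were made with Python 3.11.15, numpy 2.4.6, pandas 2.3.3 and matplotlib 3.10.9.

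The members and gene lists were chosen with earlier results of these data known. Named were all members, every other tested chemokine ligand and receptor, up to 3 genes per list and comparison with vehicle by smallest adjusted p, and the 2 genes most correlated with each member. Genes named beyond this rule, such as Cxcl2, Cxcl3, Cxcl9 and the receptor genes with low values, were chosen after their values were seen. A few genes picked by the rule are left unreported.

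Alternatives were pseudocounts of 0.1 and 0.5, no filter, FPKM of at least 5, TPM, quantile normalization, moderation without trend, the compared groups alone, a replicate block, leaving out each library and, added after seeing the data, the block within the 6 libraries of SB431542. No label ties a replicate number to a shared day or batch. Of 28 pairs of groups, 2 had residual correlations above 0.1 for each of the 3 numbers, SB431542 with SB431542 and TGFb (0.415, 0.208 and 0.117) and the latter with CLK8 and TGFb. By this check TGFb within SB431542 may be paired, which no label states. The reported fit has no replicate block, and fits with the block are given beside it. Read counts were not used here, so depth per value is unknown.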

Additional observations from a re-analysis of the deposited data

Results flagged for a closer look

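For 9 results, the TGFb difference with a compound differed from that without compound by the interaction test of limma. As given above, longer exposure to the compound cannot be told apart from this. With SR9011 the interactions were 1.27 for Cxcl12, 1.20 for Cxcl5, 1.03 for Ccl2, 0.86 for Ccl7 and 0.49 for Cxcl13, all towards a higher TGFb difference with the compound. With SB431542 they were 1.37 for Cxcl1, 1.22 for Cxcl5, 0.90 for Ccl2 and 0.31 for Cxcl12. The last was lost in all 12 fits that left out 1 library, and the others kept their calls in theirs.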

How the results depend on the processing

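A total of 36 differences changed sign under an alternative, in 18 results; none was called as reported, and 0.32 was the largest reported size among them. With a pseudocount of 0.1, the interaction was 1.39 for Cxcl13 with SB431542 (adjusted p = 0.00351), -0.0158 for Cxcl1 with SR9011 and -0.18 for Cxcl5 with CLK8, and that of Cxcl13 with SB431542 was 0.11 with a pseudocount of 0.5 and 0.0779 as TPM. Against vehicle, TGFb gave 0.0074 for Cxcl10 and 0.0046 for Cxcl12 as TPM, and 0.0101 and 0.0471 after quantile normalization. SB431542 gave 0.0166 for Cxcl1 as TPM. Quantile normalization gave -0.0024 for Ccl25 with SB431542, -0.077 for Ccl25 with CLK8 and -0.0122 for Cx3cl1 with CLK8. With 1 library left out, Cxcl10 ran from -0.18 to 0.14 for TGFb, from -0.10 to 0.16 for TGFb within SR9011 and from -0.11 to 0.23 for the SR9011 interaction. Cxcl1 ran from -0.044 to 0.045 for SB431542 and from -0.0429 to 0.35 for the SR9011 interaction, and Cxcl13 from -0.16 to 0.0254 for the SB431542 interaction. Cxcl12 ran from -0.0512 to 0.0031 for SB431542 under TGFb, from -0.0276 to 0.0475 for TGFb within CLK8 and from -0.0093 to 0.0657 for CLK8. Others ran from -0.15 to 0.0122 (Ackr3, SB431542), -0.0792 to 0.0847 (Ccl25, CLK8), -0.15 to 0.0219 (Ccl25, TGFb), -0.15 to 0.0484 (Ccl27a, CLK8), -0.0014 to 0.38 (Ccl5, SB431542) and -0.0098 to 0.12 (Cx3cl1, CLK8). The cause was not tested. A filter of FPKM of at least 5 tested 9552 genes and dropped Cxcl5 and Cxcl13, which left 2 members called for TGFb, 3 for SB431542, 2 for SB431542 under TGFb, 0 for TGFb within SB431542, 1 for TGFb within CLK8 and 3 for the SR9011 interaction. The compared groups alone gave 6 for TGFb within SB431542, and with the replicate block, added after seeing the data, 6 members and 1033 genes. With 1 library left out, members called ran from 2 to 5 for SB431542, from 3 to 5 for TGFb within CLK8 and from 0 to 1 for the CLK8 interaction. Genes called for TGFb within SB431542 ran from 199 (without SB431542 replicate 3) to 513, against 493 as reported, and were 244 and 243 without SB431542 and TGFb replicates 1 and 2. With the replicate number as a block in the fit of all groups, 7 members were called for SR9011 against vehicle and no member's call changed; only Ackr3 with CLK8 was newly called among other named genes. Of 24 libraries, 13 correlated best with a library of their own number. The share of called genes that were higher moved by over 10 points in other comparisons too: CLK8 against vehicle 69.1% to 52.1% (quantile), SB431542 under TGFb 64.2% to 49.0% (quantile), SR9011 under TGFb 60.5% to 45.8% (TPM), CLK8 under TGFb 67.5% to 49.6% (quantile), TGFb within SB431542 46.0% to 59.5%, within SR9011 31.6% to 43.7% and within CLK8 33.3% to 54.8% (TPM), SR9011 against CLK8 51.1% to 39.7% and the same under TGFb 53.2% to 29.7% (TPM), and the interactions of SB431542 62.7% to 50.9% (quantile) and CLK8 57.4% to 72.5% (TPM). List counts moved by over 1.5 times in 45 of 336 fits with 1 library left out and in 39 of 504 other alternatives, such as other ligands lower with SR9011, 12 with no filter against 4.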
